A study of Ricinus communis with 6 samples.

Results

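In the main stem internodes of the castor bean (Ricinus communis), 59 of 18875 gene rows were high in the Zhuansihao libraries L2 and L3 and stayed at the dwarf level in the Zhuansihao library L1. They were selected on the FPKM values of all 6 libraries, where FPKM counts the fragments of a gene per kilobase of its transcript, relative to all fragments mapped in that library. After 1 FPKM was added to each value, the lower of L2 and L3 had to reach at least 2 times the highest of D1, D2, D3 and L1, and L1 had to stay under 1.5 times the highest of D1, D2 and D3. The levels that met this rule are given below as a description, and no test is drawn from them.

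The study compared the dwarf, short-stalk variety 071113 (D1, D2 and D3) with the high-stalk variety Zhuansihao (L1, L2 and L3), its control, with 3 libraries for each. Both were field-grown selections derived by crossing, with the Zhebisi variety as a parent of each, and the labels give no transgene and no treatment. Poly(A) RNA came from the fifth internode in the rapid growth period, at 8 to 10 leaves. The 3 libraries of a variety are given as biological replicates. About 6 plants were dissected, and the labels do not say which plants stood behind which library.

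An internode elongates while its young cells divide and expand, and it stiffens when xylem and fibre cells lay down lignified secondary walls. Libraries from internodes of the same position can therefore hold different shares of dividing, expanding and lignifying tissue. In bulk RNA of this kind, fewer cells of a type and less RNA per cell cannot be told apart. Clusters of neighbouring genes with a shared profile are known in plants both from tandem duplication, which leaves related copies side by side, and from groups of unrelated genes that serve the same biosynthetic pathway.

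The libraries were not alike within a variety. Over the 16236 rows with at least 1 FPKM in at least 2 libraries, called expressed rows here, the Pearson correlation of log2(FPKM + 1) across genes was 0.978 between D1 and D3, 0.958 between D2 and L1, and 0.966 between L2 and L3, against 0.792 between D1 and D2 and 0.927 between L1 and L3. The study left D2 out of its own comparison, but the rule used it. Without D2 the rule found 79 members, 57 of which were among the 59. FPKM holds no read number, but the repeated ratios of its lowest values put the depth at 0.868 of D1 in L2 and 0.937 in L3, the 2 libraries in which the members were high, against 1.05 to 1.08 in D2, D3 and L1. The part of depth in the members' levels was not tested. No list of internode markers could be matched to the gene identifiers, so the labelled tissue was not checked against one. The study does name cell cycle and lignin genes, chosen on these libraries. Its 8 cell cycle genes, which serve DNA replication and mitosis in dividing cells, were all highest in D2 and L1, with sums of 6.05, 61.7 and 6.34 FPKM in D1, D2 and D3, against 54.9, 18.5 and 20.5 in L1, L2 and L3. Of its lignin genes, the peroxidase LOC8258115 was counted here with the cell wall genes. The other 4 were all highest in D1 and D3. Their sums were 12.5, 3.53 and 15.3 FPKM in the dwarf libraries, against 1.91, 1.48 and 1.79 in the Zhuansihao libraries. LOC8258115 was also highest in D1 and D3, with 9.53, 0.546 and 5.66 FPKM in D1, D2 and D3, against 0.631, 0.584 and 1.26 in L1, L2 and L3. In none of these cell cycle and lignin genes were L2 and L3 the highest pair. The part of such tissue in the members' levels was not tested.

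Most members were well expressed in L2 and L3. Their median levels were 2.53, 5.93 and 11.7 FPKM in the dwarf libraries D1, D2 and D3, against 6.46, 33.9 and 55.4 FPKM in L1, L2 and L3, whereas the median of the expressed rows lay between 15.8 and 17.4 FPKM in every library. Together the members took 0.0761%, 0.175% and 0.282% of the summed FPKM of D1, D2 and D3, and 0.131%, 0.779% and 1.29% of that of L1, L2 and L3. Thus D3 stood above D1, D2 and L1 in both measures, although by less than L2 and L3. The mean of L2 and L3 exceeded 100 FPKM in 23 members, lay between 10 and 100 in 28 and was under 10 in 8. All 59 passed the filter on low values, which the rule makes certain, since it puts both L2 and L3 at 1 FPKM or more.

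**Figure D1:**
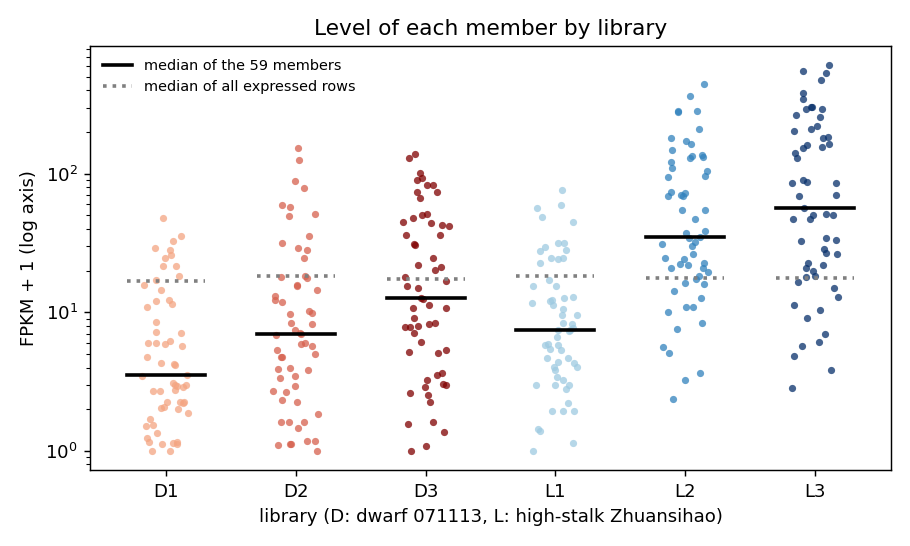
FPKM + 1 (log axis) of the 59 members in each of the 6 libraries, with dwarf 071113 on the left and Zhuansihao on the right; each point is 1 gene, black bars are medians of the members and dotted bars medians of the 16236 expressed rows. The median of the members is below that of the expressed rows in D1, D2, D3 and L1 and above it in L2 and L3, and among the first 4 libraries it is lowest in D1 (2.53 FPKM before 1 is added) and highest in D3 (11.7).

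The ratio on which the rule rests ran from 2.03 to 6.26, with a median of 2.37, so that 38 members were under 2.5 and 16 were at 3 or more. The 2 members just inside the threshold were LOC8275967 (2.03; 25.0, 50.1 and 66.0 FPKM in D1, D2 and D3, against 58.1, 135 and 140 in L1, L2 and L3) and LOC8270711 (2.03). Just outside it stood LOC107260918 (1.98) and LOC8285899 (1.97). The limit on L1 held out 3 rows that met the ratio: LOC8266455, with an L1 ratio of 1.56, LOC8269507 (1.78) and LOC8260996 (3.74). The members nearest to that limit were LOC8278139 (1.49) and LOC8274460 (1.19). In 53 of the 59 members L1 lay between the lowest and the highest dwarf library, and in 5 it was above all 3 of them. Rows in which every Zhuansihao library was above every dwarf library made up 7.41% of the expressed rows, and these 5 members are 8.47% of 59, a share the rule on L1 bears on.

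The members were not called between the varieties. A call asked for an adjusted p under 0.05 in limma on log2(FPKM + 1) and a log2 difference of 2 or more in either direction. With D1 and D3 set against the 3 Zhuansihao libraries, 0 of 59 members were called by limma, where 2.53% of 15925 tested genes were, and 6 members and 5584 genes had an unadjusted p under 0.05. Over all 6 libraries 0 of 59 members were called by limma, where 0.0123% of 16236 were, and 12 members and 1511 genes had an unadjusted p under 0.05. The log2 difference, dwarf minus Zhuansihao, was negative in 59 of 59 members, which the rule favours, with medians of -1.70 and -1.67. With L1 left out as well as D2, 12 of 59 members were called by limma, where 364 of 15692 tested genes were. The rule used these same contrasts, so nothing is read from the counts.

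LOC8276921 had the largest ratio of the members. Its level was 0.510, 0.612 and 1.54 FPKM in D1, D2 and D3, against 1.24, 14.9 and 17.2 in L1, L2 and L3, or 0.887 ± 0.567 and 11.1 ± 8.65 (SD, n = 3 each). The 4 lower libraries lay at 1.54 FPKM or less, and L2 and L3 stood well clear of all of them. At so low a level the added 1 FPKM weighs on the ratio. LOC8275273 was next, with 1.71, 3.77 and 2.55 FPKM in the dwarf libraries, against 2.83, 19.8 and 20.9 in L1, L2 and L3. In both genes L2 and L3 were close to each other and L1 lay inside the dwarf range.

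LOC8258389 and LOC8268089 had the third and the fifth largest ratios but a different spread below L2 and L3. LOC8258389 had 1.24, 16.8 and 15.9 FPKM in D1, D2 and D3, against 6.27, 68.3 and 182 in L1, L2 and L3. LOC8268089 had 3.79, 124 and 73.1 FPKM in the dwarf libraries, against 26.7, 444 and 533 in the Zhuansihao libraries, the highest level in L2 of all members. In these genes D1 and L1 were the low libraries and D2 and D3 stood in between. The spread within each variety was correspondingly wide, with means of 67.0 ± 60.4 FPKM for LOC8268089 in the dwarf libraries and 335 ± 270.4 FPKM in the Zhuansihao libraries (SD, n = 3 each).

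Of the other members among the 12 largest ratios, LOC8263390 and LOC8258730 had nearly the same profile. LOC8263390 had 4.87, 10.9 and 20.3 FPKM in the dwarf libraries, against 11.9, 68.9 and 89.1 in the Zhuansihao libraries. LOC8258730 had 5.02, 13.4 and 20.9 FPKM, against 10.7, 68.3 and 84.3. Apart from the neighbouring genes described further on, the remaining ones were lower: LOC8267806, LOC8259128 and LOC8287702 reached 27.7 to 49.5 FPKM in L3, and LOC8274460 reached 16.5 in L2 and 11.9 in L3. LOC8274460 was among the 7 members in which L2 exceeded L3. The sources used here give none of these genes a name or a function.

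Members with high levels were also found outside this list. LOC8258787 had 27.9, 87.2 and 138 FPKM in D1, D2 and D3, against 48.0, 282 and 606 in L1, L2 and L3, the highest value of any member. LOC8281705 had 14.8, 152 and 128 FPKM in the dwarf libraries, against 75.4, 363 and 475 in the Zhuansihao libraries. LOC8279596 had 31.7, 5.81 and 101 FPKM, against 30.7, 283 and 302. These genes were far from silent in the dwarf variety: the highest dwarf library exceeded 100 FPKM in each of them, and what set them apart was a further rise of 2.04 to 2.79 times on the scale of FPKM + 1. LOC8266266 had 10.98, 48.9 and 81.9 FPKM in D1, D2 and D3, against 28.5, 171 and 293 in L1, L2 and L3, the same order of libraries as LOC8258787.

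The lowest members were near the limit of detection. LOC107260741 was listed at 0 in D1, D2, D3 and L1 and had 1.38 FPKM in L2 and 1.85 in L3, so that no fold change can be given. LOC8277388 had 0, 0.616 and 0.557 FPKM in the dwarf libraries, against 0.136, 2.64 and 2.82 in the Zhuansihao libraries. At such levels the added 1 FPKM sets much of the ratio.

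The members shared a second difference, which the rule did not ask for. In D1 and D3, the pair of dwarf libraries with the closest correlation across genes, D3 was above D1 in 55 of 59 members (93.2%), against 50.1% of the expressed rows. D3 reached at least 2 times D1 on the scale of FPKM + 1 in 42 members (71.2%), against 2.03% of the expressed rows, so that these 42 were part of only 330 such rows in the table. The median ratio of D3 to D1 was 2.76 in the members and 1.00 in the expressed rows. The rule treats D1 and D3 alike, but it picks rows that differ between libraries. Of the 307 expressed rows with L2 and L3 both at least 2 times L1, 118 had D3 at least 2 times D1. The 42 members are among these 118. Without D2 in the rule, 52 of 79 members met the same limit on D3 and D1. With 1 library on each side there is no test of this difference, and it describes these libraries.

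The size of this difference varied between members. It was greatest in LOC8284540, with 2.09, 56.7 and 50.1 FPKM in D1, D2 and D3, against 27.4, 130 and 257 in L1, L2 and L3, a D3 to D1 ratio of 16.5. LOC8268089 followed at 15.5. D1 exceeded D3 in 3 members, LOC8278139, LOC8268604 and LOC8283802, and LOC8278139 had 6.11, 2.84 and 1.252 FPKM in the dwarf libraries, against 9.59, 21.9 and 25.7 in the Zhuansihao libraries. D1 was the lowest of D1, D2, D3 and L1 in 43 members, D2 in 13 and D3 in 2.

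Within Zhuansihao, L3 was above L2 in 52 of 59 members (88.1%), against 49.0% of the expressed rows. The median ratio of L3 to L2 was 1.45 in the members and 0.995 in the expressed rows. L3 reached at least 2 times L2 in 10 members (16.9%), against 3.69% of the expressed rows. LOC8282880 was among them, with 7.54, 14.7 and 23.6 FPKM in D1, D2 and D3, against 8.60, 53.7 and 153 in L1, L2 and L3. The rule treats L2 and L3 alike, but it used the values of both and picks rows that differ between libraries. This difference too rests on 1 library on each side and has no test.

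**Figure D2:**
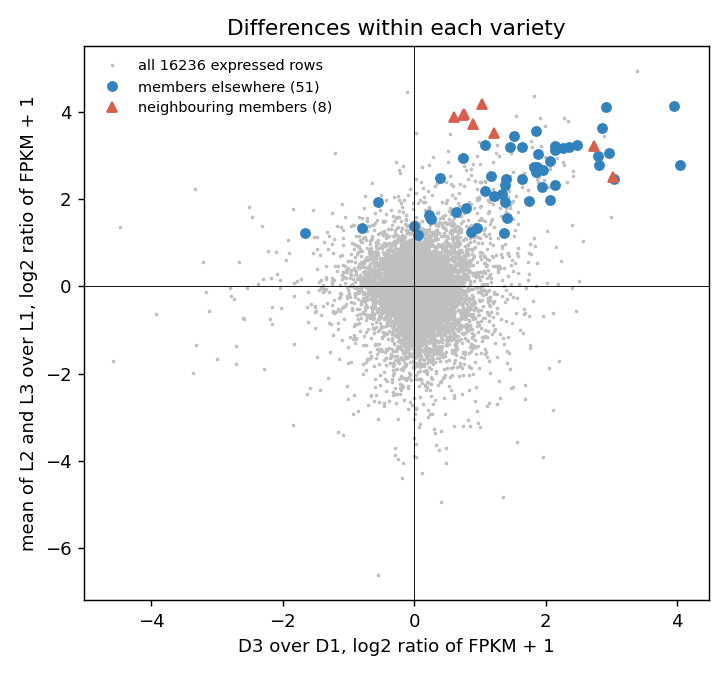
Log2 ratio of D3 to D1 (x axis) and of the mean of L2 and L3 to L1 (y axis), both of FPKM + 1, for the 16236 expressed rows (grey), the 51 members outside the neighbouring group (blue circles) and the 8 neighbouring members (red triangles). The height on the y axis is set by the rule, whereas the x axis is not: 55 of 59 members lie to the right of 0, and the 3 in which D1 exceeded D3 lie to the left.

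The order of the 4 lower libraries differed between members. In 21 members the order was D1, L1, D2, D3 from low to high, an order found in 0.930% of the expressed rows, and in 10 it was D1, L1, D3, D2. Together these 31 members had D1 lowest and L1 next, against 2.76% of the expressed rows. A further order, D2, L1, D1, D3, is given below with the neighbouring members. In 37 members D3 was the highest of the 4 libraries, and their medians were 4.87, 7.33 and 20.9 FPKM in D1, D2 and D3, against 8.60, 68.3 and 89.1 in L1, L2 and L3. In 15 members D2 was the highest, with medians of 1.07, 6.48 and 4.38 FPKM, against 3.40, 19.8 and 20.9. L1 was the highest of the 4 in 5 members and D1 in LOC8283802, which had 11.2, 4.39 and 7.35 FPKM in D1, D2 and D3, against 5.61, 23.7 and 25.2 in L1, L2 and L3. Grouping by these orders was chosen after the values were seen and carries no test.

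Well expressed members showed the first of these orders plainly. LOC8266484 had 5.23, 34.6 and 42.7 FPKM in D1, D2 and D3, against 23.4, 133 and 203 in L1, L2 and L3. LOC8275160 had 9.90, 23.8 and 47.1 FPKM in the dwarf libraries, against 16.1, 109 and 208 in the Zhuansihao libraries. LOC8265062 had 4.71, 27.4 and 43.6 FPKM, against 14.4, 93.2 and 160.03. D3 exceeded L1 in each of them, so that the dwarf and Zhuansihao libraries overlapped and only L2 and L3 stood clear. LOC8272976 differed in that L3, at 163 FPKM, was more than 2 times L2, at 71.3, whereas its dwarf libraries had 3.19, 17.4 and 29.5 FPKM and L1 had 8.60.

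The 5 members with L1 above every dwarf library were LOC8274460, LOC8271692, LOC8268604, LOC8278139 and LOC8272477, and their medians were 1.87, 2.37 and 1.91 FPKM in D1, D2 and D3, against 3.01, 16.5 and 11.9 in L1, L2 and L3. LOC8271692 was the most abundant, with 6.22, 8.80 and 11.5 FPKM in the dwarf libraries, against 11.6, 36.1 and 49.2 in the Zhuansihao libraries. D3 and L1 differed there by far less than the spread within either variety (8.84 ± 2.64 and 32.3 ± 19.1 FPKM, SD, n = 3 each). LOC8268604 was low, with 0.867, 0.0985 and 0.0803 FPKM in the dwarf libraries, against 0.952, 4.07 and 3.86 in the Zhuansihao libraries, and D1 was nearly level with L1.

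**Figure D3:**
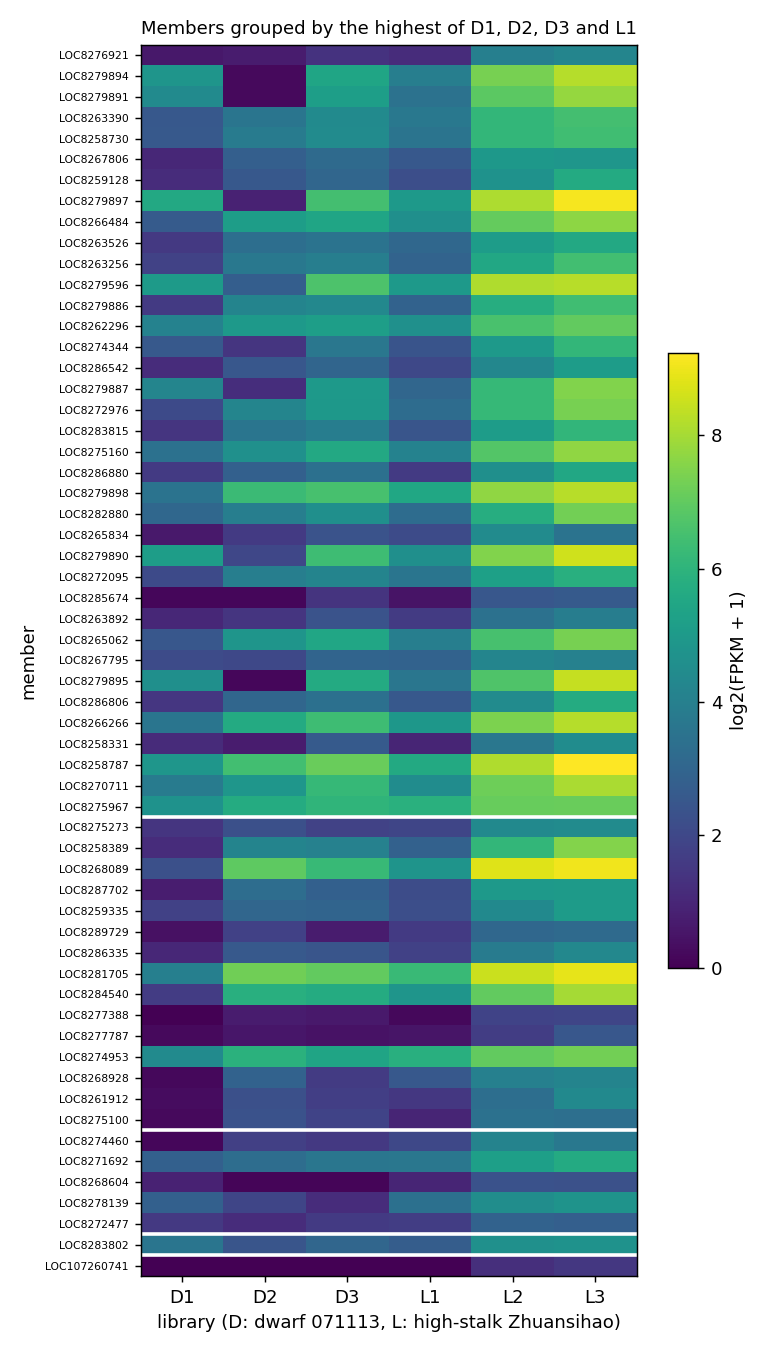
Log2(FPKM + 1) of each of the 59 members (rows) in the dwarf libraries D1, D2 and D3 and the Zhuansihao libraries L1, L2 and L3 (columns), with white lines between members whose highest library among D1, D2, D3 and L1 was D3 (37), D2 (15), L1 (5) or D1 (1), and the gene listed at 0 in all 4. The 2 columns on the right are brightest in every row, and D2 is dark in a set of rows that are bright in D3, among them LOC8279894, LOC8279891, LOC8279897 and LOC8279895.

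A group of the members were neighbours. In the gene order of the castor RefSeq assembly ASM1957865v1, 8 members lay within 10 consecutive measured genes, from LOC8279898 to LOC8279886, and the numbers of the deposited gene identifiers followed the same order. The reference places 13 genes there, 3 of which had no row in the table. The remaining 51 members were dispersed, the closest pair of them being 10 measured genes apart. In L3 the 8 neighbours made up 30.8% of the members' summed FPKM, and in L2 25.4%. The counting of reads that match several genes is not given in the sources used here, so values of neighbouring genes, if they are similar in sequence, may share reads.

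The 8 inner genes of this stretch shared a profile in which D2 was at 2.93 FPKM or less. LOC8279897 had 47.1, 0.836 and 88.8 FPKM in D1, D2 and D3, against 30.6, 277 and 551 in L1, L2 and L3 (means of 45.6 ± 44.0 and 286 ± 261, SD, n = 3 each). LOC8279894 had 27.2, 0.185 and 41.9 FPKM in the dwarf libraries, against 14.4, 162 and 293 in the Zhuansihao libraries. LOC8279895 had 23.6, 0.116 and 49.4 FPKM, against 11.3, 104 and 343. Each of these genes was lowest in D2 by a wide margin, and the order of the other libraries was L1, D1, D3, L2, L3 from low to high.

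LOC8279891, LOC8279890 and LOC8279887 followed the same order. LOC8279891 had 20.6, 0.189 and 35.0 FPKM in D1, D2 and D3, against 10.2, 120 and 220 in L1, L2 and L3. LOC8279890 had the highest value in D2 of the inner genes, with 34.5, 2.93 and 81.4 FPKM, against 23.6, 180 and 379. LOC8279887 had 17.3, 1.32 and 29.9 FPKM, against 7.25, 72.4 and 179. The 2 inner genes that were no members, LOC8279896 (ratio 1.56) and LOC8279889 (1.60), had the same order too. LOC8279896 had 23.5, 0.404 and 34.6 FPKM in the dwarf libraries, against 6.99, 54.7 and 123 in the Zhuansihao libraries, and it missed the rule because D3 was more than 0.5 of L2.

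Summed over the 8 inner genes, the dwarf libraries D1, D2 and D3 held 200.4, 6.32 and 374 FPKM, against 106, 990.0 and 2123 FPKM in L1, L2 and L3. D2 and L1 were otherwise close in the whole table, with a correlation of 0.958. Over the full table, 12 rows had every other library at 5 or more times D2 on the scale of FPKM + 1, and 6 of the 12 were inner genes of this stretch. This count was chosen after the values were seen.

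The genes at the ends of the stretch behaved differently. LOC8279898 had 10.52, 78.2 and 92.6 FPKM in D1, D2 and D3, against 44.1, 209 and 304 in L1, L2 and L3. LOC8279886 had 2.00, 17.03 and 19.1 FPKM in the dwarf libraries, against 6.46, 53.7 and 84.3 in the Zhuansihao libraries. In both, D1 was the lowest library and D2 nearly reached D3, the order D1, L1, D2, D3 that was found in 19 of the 51 members elsewhere. The order of the inner genes, D2, L1, D1, D3, was found in 3 members elsewhere, LOC8279596, LOC8274344 and LOC8258331, and in 9.10% of the expressed rows.

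The genes next to both ends had other profiles. LOC8279899, next to LOC8279898, had 7.97, 16.6 and 8.20 FPKM in D1, D2 and D3, against 13.6, 10.1 and 14.1 in L1, L2 and L3. LOC8279905, next to LOC8279886, had 39.8, 30.2 and 35.9 FPKM in the dwarf libraries, against 40.7, 42.5 and 41.8 in the Zhuansihao libraries. L2 and L3 were not set apart in either gene. One gene further out, LOC8279904 had 1.91, 2.83 and 3.97 FPKM in D1, D2 and D3, against 4.92, 7.97 and 8.37 in L1, L2 and L3. L2 and L3 were its highest libraries, with a ratio of 1.51, but D1 and not D2 was its lowest.

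**Figure D4:**
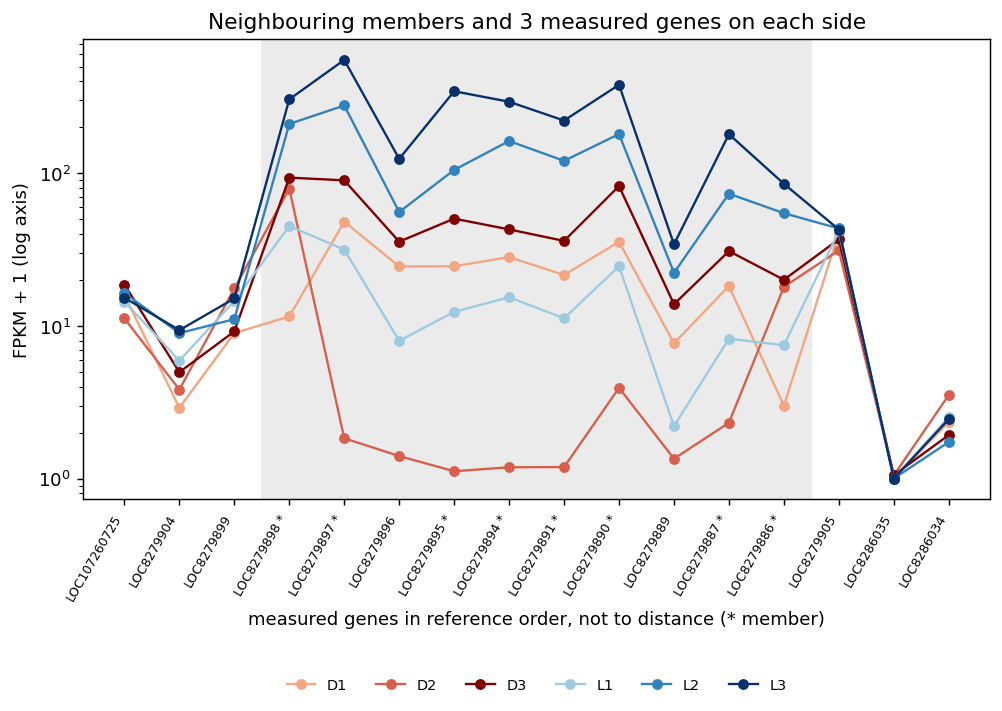
FPKM + 1 (log axis) in each library for the 10 consecutive measured genes that hold 8 members (shaded, members marked with an asterisk) and for 3 measured genes on each side, in reference gene order and not to distance; lines join the values of a library. L2 and L3 are the top lines in all 10 shaded genes, and the line of D2 drops to between 0.116 and 2.93 FPKM, before 1 is added, in the 8 inner genes but not in the genes at the ends.

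The only member that the study names was IAA33 (LOC8289729), an auxin-responsive protein of the Aux/IAA family. Aux/IAA proteins are repressors that bind auxin response factors, and most are destroyed when auxin joins them to the TIR1 receptor; in Arabidopsis, IAA33 lacks the domain through which the receptor binds. IAA33 had 0.349, 2.45 and 0.617 FPKM in D1, D2 and D3, against 1.99, 7.45 and 8.12 in L1, L2 and L3 (means of 1.14 ± 1.14 and 5.85 ± 3.36, SD, n = 3 each). All dwarf libraries were below L2 and L3, but D2 was above L1. The limma log2 difference, dwarf minus Zhuansihao, was -2.05 (standard error 0.54) without D2 and -1.65 (standard error 0.57) over all 6 libraries, and as the rule used the same values, no test is read from it.

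None of the other auxin genes that the study names met the rule. Of 8 in all, chosen by the study on these libraries, IAA33 was the only member. The study's own test, on read counts, called some of these genes, AUX22 and SAU50 among them. By limma 0 of the 8 were called without D2, where 4 had an adjusted p under 0.05 with a difference below the limit of 2, against 2090 of 15925 genes with an adjusted p under 0.05. Of these 4, the auxin response factor LOC8274635 was higher in the dwarf libraries (log2 difference 1.41, standard error 0.27), and the others were lower. The study instead reports LOC8274635 and another response factor, LOC8259066, as down-regulated in the dwarf. LOC8259066 had a positive difference too, 0.36 (standard error 0.18), at an adjusted p of 0.23 in limma. With D2 included, the differences were 1.05 for LOC8274635 and 0.32 for LOC8259066. Over all 6 libraries 0 of the 8 were called by limma. At an unadjusted p under 0.05 these numbers were 6 without D2, against 5584 of 15925 genes, and 3 over all 6 libraries, against 1511 of 16236. AUX22 (LOC8271341), another Aux/IAA gene, had 2.89, 34.7 and 4.05 FPKM in D1, D2 and D3, against 31.3, 9.40 and 22.1 in L1, L2 and L3. Its highest libraries were D2 and L1, where IAA33 was at an intermediate level. A small auxin-up RNA gene, LOC8260421, had the highest rule ratio of the other 7, at 1.52, with 0.418, 1.53 and 0.529 FPKM in the dwarf libraries, against 2.90, 4.93 and 6.29 in the Zhuansihao libraries. Genes of this family are rapidly induced by auxin in elongating tissue. As in IAA33, L2 and L3 were the highest libraries of LOC8260421 and D1 and D3 the lowest. Its L1 ratio of 1.54 was also outside the rule. None of the cell cycle, expansin, lignin, cytokinin, transporter, cell wall or chaperone genes named by the study and matched here was a member, and over all lists 1 of 33 matched genes was.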

How the data were processed

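Libraries of poly(A) mRNA, 3 of dwarf 071113 and 3 of Zhuansihao, were read on an Illumina HiSeq. The deposited FPKM values, computed by the authors for each library on its own, were used as they stood, with D2 included. The aligner, the counter and the build of the genome were not given in the sources used here, and the depth is unknown apart from its relative size, so no counting interval is given. The members and lists were chosen with earlier results of these data known.

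The rule was applied to all 18875 rows. Rows with at least 1 FPKM in 2 or more compared libraries were fitted as log2(FPKM + 1) in limma 3.58.1 under R 4.3.3 (trended variance), and p-values were adjusted by Benjamini and Hochberg over all tested genes. FPKM values are no counts, so no count model was used. The fit was also run on simulated data with independent noise of capped spread. That noise does not copy the shared departures of D2 and L1, so the run does not bear on the members. The comparison without D2 is the study's own. Python 3.11.15 with numpy 2.4.6, pandas 2.3.3 and matplotlib 3.10.9 served for the rest.

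The genes named are the 12 members with the largest ratios, the 10 with the highest mean of L2 and L3, those named by the study, those next to both thresholds and the neighbouring ones. Others that illustrate a pattern were chosen after their values were seen. All 59 members matched the castor RefSeq table, which gave none of them a name and was used only for names and gene order. No gene descriptions were at hand, so keyword lists met only a few synonyms. They matched 5 rows for terpenes and CYP726A cytochrome P450 genes, 3 for aquaporins and 1 for photosynthesis, with 0 members among them. Tissue markers could not be checked beyond this, and the planned search for promoter motifs was not run. Other pseudocounts, thresholds, scaling, filters and sets of libraries and a replicate block were tried.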

Additional observations from a re-analysis of the deposited data

How the results depend on the processing

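The number of members was 75 with a pseudocount of 0.1 in the rule, 63 with 0.5 and 55 with median-ratio scaling, of which 58, 58 and 54 were among the 59. A threshold of 1.5 in place of 2 gave 154 members and a threshold of 3 gave 16; a stricter and a looser limit on L1 gave 58 and 61. With each library left out in turn, the rule gave between 65 and 229 members: 65 without D1, 79 without D2, 111 without D3, 101 without L1, 229 without L2 and 110 without L3, and between 57 and 59 of the 59 stayed among them. The count of members called without D2 was 1 with a pseudocount of 0.1, between 0 and 12 with a further library left out (12 without L1, where 364 of 15692 genes were called), and 0 under every other alternative run. Over all 6 libraries it was 0 under every alternative run, but these fits called between 0 and 2 genes in the whole table, other than that without D2 (403). With 1 dwarf library left, that library is assumed to vary like the Zhuansihao libraries.

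With the replicate number as a block, 0 members were called in either set of libraries. As 0 of 15925 and 0 of 16236 genes were called too, this says nothing of the members. The deviations of same-numbered libraries from their variety means correlated at -0.47, -0.55 and 0.33 across genes. Such deviations sum to 0 within a variety, so these values cannot show whether same-numbered libraries were handled together. D3 was at least 2 times D1 in 44 members with a pseudocount of 0.5, in 45 with 0.1 and in 42 with median-ratio scaling, alternatives chosen after seeing the data. For 23 members named by rule, the choice of members fixes the direction. Under both pseudocounts and the scaling, 68 of 69 log2 ratios moved by less than a set spread. That spread was the standard deviation of log2(FPKM + 1) over D1, D2, D3 and L1, so it mixed both varieties. The ratio that moved further was that of the top member LOC8276921, at 3.19 with a pseudocount of 0.1 in place of 2.65. LOC8258787 fell below the threshold of 2 under the scaling, at 0.98 on the log2 scale.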

Other observations

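The difference between D3 and D1 went beyond the members. Among the 330 expressed rows with D3 at least 2 times D1 on the scale of FPKM + 1, 288 were no members, and in 76 of these (26.4%) L2 and L3 were both at least 2 times L1, against 1.53% of all expressed rows that were no members. Among the 159 rows with D1 at least 2 times D3, L2 and L3 were both at least 2 times L1 in 8 (5.03%). In the other direction, L1 was at least 2 times both L2 and L3 in 33 of the 330 rows and in 22 of the 159, against 4.00% of all expressed rows. The comparison of D3 with D1 and that of L2 and L3 with L1 share no library. These counts were made after the values were seen, and they have no test, since each rests on 1 library per side in the dwarf variety.

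Of the 12 rows in which every other library was at least 5 times D2, 6 lay outside the stretch of neighbours. LOC8260258, no member, had 5.65, 0.202 and 14.9 FPKM in D1, D2 and D3, against 5.52, 26.9 and 95.4 in L1, L2 and L3. Its order of libraries was that of the inner genes of the stretch, with D1 and L1 nearly equal. LOC8270412 had 7.46, 0.0385 and 7.77 FPKM in the dwarf libraries, against 6.27, 7.30 and 7.27 in the Zhuansihao libraries, so that only D2 stood apart.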
